A study of Mus musculus with 28 samples.

Results

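The response of mouse liver to 90 days of the plasticizer di(2-ethylhexyl) phthalate (DEHP) was compared between mice lacking Pparg in macrophages and wild-type mice. The comparison used the 16 libraries of the 90-day time point, chosen by their labels, out of 28 libraries of whole liver RNA in the series. The groups were knockout given DEHP at 625 mg/kg body weight by gavage (KO DEHP), knockout given the vehicle, 0.5% carboxymethyl cellulose (KO CMC), wild type given DEHP (WT DEHP) and wild type given the vehicle (WT CMC), with 4 libraries each. All mice were C57BL/6 males, and their age is not given in the labels. The knockout is described there as macrophage-specific, and the labels name neither the promoter that drives Cre nor the floxed allele. They speak of 12 mice per group without saying which mice gave which library, so p-values reflect the scatter among libraries, which may be technical. Values are FPKM, a level of expression corrected for transcript length and library depth.

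DEHP is hydrolysed in the gut and liver to its monoester, which binds and activates PPARalpha, a nuclear receptor abundant in hepatocytes. PPARalpha pairs with RXR on repeated AGGTCA-like elements and in rodents switches on genes of peroxisomal and mitochondrial fatty acid oxidation and the omega-hydroxylases of the Cyp4a family. PPARgamma is a related receptor that drives lipid storage in adipocytes and, in macrophages, takes part in lipid handling and in restraint of inflammatory genes. The comparison addresses whether loss of macrophage Pparg alters what DEHP does to the liver transcriptome. A response is given below as the log2 difference, DEHP minus CMC, of FPKM + 1. The interaction is the knockout response minus the wild-type response, so a positive interaction means a higher DEHP-minus-CMC difference in the knockout.

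The libraries were liver by their markers, with Alb, the albumin gene, between 14340 and 29680 FPKM in all 16. Summed FPKM lay between 573429 and 647703, and between 9851 and 10328 genes reached 1 FPKM. The depth, estimated from the spacing of the lowest values, was about 9.25 to 14.5 M fragments a library, M standing for mega. Transcripts of the exocrine pancreas, the digestive enzyme genes of a neighbouring organ, were abundant in 5 libraries, called below the libraries with pancreas transcripts. KO DEHP library 4, not among them, had genes of the endocrine pancreas at 14.6 FPKM in sum, against 0 to 0.05 FPKM in KO CMC libraries. Exocrine genes made up 6.03%, 2.64%, 11.7% and 0.0124% of summed FPKM in KO DEHP libraries 1 to 4, against 0.00488% to 0.0066% in KO CMC libraries. They made up 6.73% in WT DEHP library 4 and at most 0.00683% in the other WT DEHP libraries, against 4.52% in WT CMC library 4 and at most 0.00706% in the other WT CMC libraries. The tissue therefore sits on one side of the knockout comparison and on both sides of the wild-type comparison. Cela2a, a pancreatic elastase gene, had 4046, 1632, 6682 and 9.38 FPKM in KO DEHP libraries, against 0.13, 1.32, 0.57 and 0 FPKM in KO CMC libraries. The same gene had 0.56, 0.10, 2.14 and 3923 FPKM in WT DEHP libraries, against 0.81, 0.69, 2.23 and 2749 FPKM in WT CMC libraries. Of 44 exocrine genes tested, all had a positive interaction, with a median of 5.18, and none was called. Genes of the exocrine and endocrine pancreas lists were therefore set apart wherever both responses are compared.

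**Figure D1:**
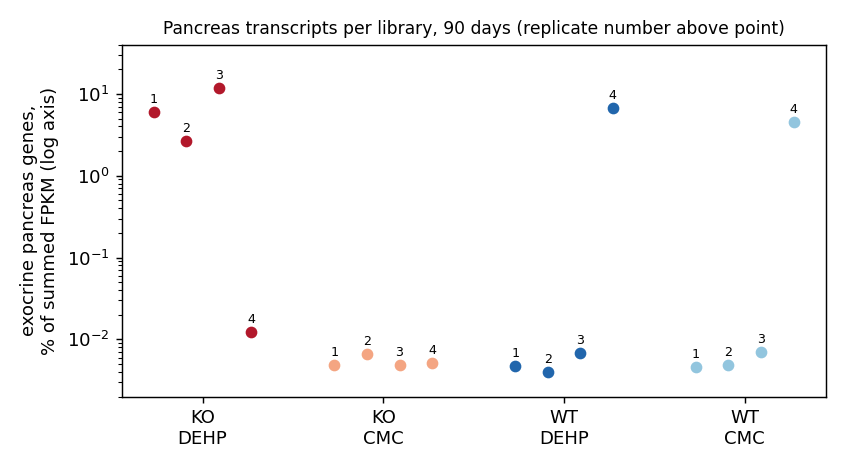
Exocrine pancreas genes as a percentage of summed FPKM (vertical log axis) in each of the 16 libraries, by group, with the replicate number above each point. KO DEHP libraries 1, 2 and 3, WT DEHP library 4 and WT CMC library 4 lie between 2.64% and 11.7%, and KO DEHP library 4, at 0.0124%, lies slightly above the remaining 10.

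Pparg itself (Entrez 19016, chromosome 6, 115360879 to 115490404, GRCm38.p6) was expressed at a few FPKM in whole liver of both genotypes. It had 4.37, 6.69, 5.02 and 5.19 FPKM in KO DEHP libraries, against 2.28, 2.07, 1.51 and 3.58 FPKM in KO CMC libraries. In wild type it had 4.18, 4.74, 5.58 and 5.02 FPKM with DEHP, against 5.2, 1.63, 1.51 and 5.01 FPKM with CMC. The knockout groups did not overlap and the wild-type groups did. The response was 0.93 ± 0.27 in knockout (SE, adjusted p = 0.0613, limma) and 0.56 ± 0.27 in wild type (adjusted p = 0.234), and the interaction was 0.37 (95% interval -0.44 to 1.17, adjusted p = 0.935). Most Pparg RNA of a liver need not come from macrophages, so these values do not check the deletion. Lyz2, which encodes lysozyme M of macrophages and neutrophils, separated the genotypes, with 0.83 to 1.88 FPKM in KO DEHP and 1.12 to 2.19 FPKM in KO CMC libraries, and with 49.2 to 62.7 FPKM in WT DEHP and 76.7 to 105 FPKM in WT CMC libraries. Its response in wild type was -0.56 ± 0.15 (SE, adjusted p = 0.0388), a call lost without any 1 of WT DEHP libraries 2 to 4 or WT CMC libraries 1 to 3. For this fall in whole tissue, fewer cells of a type and less RNA per cell cannot be told apart. Between the genotypes, the summed level of 19 macrophage markers, Lyz2 among them, overlapped. It was 326 to 558 FPKM in knockout and 349 to 578 FPKM in wild-type libraries. The cause of the low Lyz2 in knockout libraries was not tested.

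Between DEHP and CMC, 460 of 10744 genes tested were called in the knockout, 4.28%, at an adjusted p under 0.05. Of these, 357 rose (3.32% of genes tested) and 103 fell (0.959%). In wild type 679 genes were called, 6.32%, of which 492 rose (4.58%) and 187 fell (1.74%). Upper quartile scaling of the libraries turned this split into 275 higher and 262 lower in knockout and 492 higher and 352 lower in wild type, so the excess of higher over lower calls in knockout depends on the scaling. Called the same way in both genotypes were 232 genes, 2.16% of those tested, with 191 higher (1.78%) and 41 lower (0.382%). The 191 shared higher genes made up 53.5% of the knockout's higher calls and 38.8% of the wild type's, and the 41 shared lower genes 39.8% of the knockout's lower calls and 21.9% of the wild type's. DEHP and CMC libraries did not overlap for 432 of the 460 knockout calls and 608 of the 679 wild-type calls, against 12.5% of all genes tested in knockout and 11.9% in wild type. The overlap is read from the same values that gave the calls, so it describes them and adds no support. The counts of calls moved with single libraries, to 173 in knockout without KO DEHP library 3 and to 274 in wild type without WT DEHP library 4. In the knockout DEHP is confounded with pancreas tissue, and 2 of the 460 calls are on the pancreas lists. With a pancreas score per library as a covariate, itself confounded with KO DEHP, 61 genes were called in the knockout and 668 in wild type.

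The interaction, the direct test of a difference between the genotypes' responses, called 0 of 10744 genes in limma, with a smallest adjusted p of 0.432. At an unadjusted p under 0.05 it held 637 genes, 5.93%, of which 436 were positive (4.06%) and 201 negative (1.87%). That does not show the responses to be equal, and the intervals give what can be said. The 95% interval of the interaction reached a median of 0.36 to either side and lay within -1 and 1 for 9849 genes, 91.7%. For these a difference between the responses of more than 1 in log2(FPKM + 1) is outside the interval. That scale understates changes of genes with low FPKM, so the bound says less of their fold change. Among the 232 genes called in both, 197 (84.9%) had such an interval and 5 (2.16%) an unadjusted interaction p under 0.05. The 232 were chosen for calls of the same sign on these values, which favours small interactions. Their shares therefore describe the set and add no support for agreement. With a pseudocount of 0.1, 223 genes were called the same way in both and 161 shared genes had such an interval.

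Across the 10697 tested genes off the pancreas lists, the 2 responses had a Pearson r of 0.680 and a Spearman rho of 0.519, and a major axis slope of 1.02. With the pancreas genes included, r was 0.474 and the slope 2.33. These coefficients run across genes of the same libraries, which are no independent replicates, and the 2 responses share no library. For the 232 genes called in both, the median response was 0.56 in knockout and 0.60 in wild type.

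**Figure D2:**
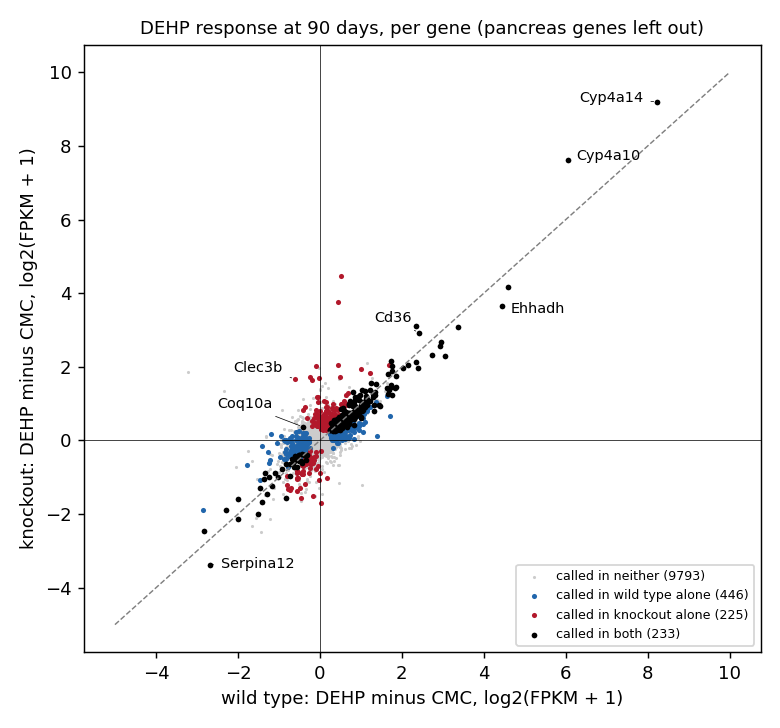
Response to DEHP per gene in knockout (vertical) against wild type (horizontal), as DEHP minus CMC in log2(FPKM + 1), for 10697 genes off the pancreas lists, coloured by where the gene was called. The dashed line marks equal responses. The black points, 233 with Coq10a, which moved in opposite directions, run along the line from Serpina12 to Cyp4a14. They were chosen by calls on the values plotted, so their run along the line is no evidence of agreement.

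Genes called in 1 genotype alone mostly leaned the same way in the other. Of all 10697 genes off the pancreas lists, 7249 (67.8%) had responses of the same sign in both genotypes. Among them 225 genes were called in the knockout alone, and 191 of these (84.9%) had a response of the same sign in wild type. The interval of the interaction held 0 for 137 of the 225. In wild type alone 446 genes were called, and 416 (93.3%) had the same sign in the knockout, with an interaction interval that held 0 for 343. For most of these genes the data did not separate the 2 responses.

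Genes chosen in other libraries gave the same comparison without selection on the 90-day values. They had to be called the same way in both genotypes at 28 days, so genes responding in 1 genotype alone were left out. The choice thus favours agreement, and the set cannot show how often the genotypes differ. At 28 days, in 12 other libraries of the series, 793 genes were called higher and 432 lower in both genotypes. Of the higher ones, 762 were tested at 90 days off the pancreas lists, and their median 90-day response was 0.30 in knockout and 0.35 in wild type, with a median interaction of -0.06 and r = 0.913 across genes. Of the lower ones, 412 were tested, with medians of -0.19 in knockout and -0.26 in wild type and r = 0.727. Over all 10744 genes the medians were 0.03 in knockout and -0.01 in wild type. Without the 5 libraries that hold pancreas transcripts, which leaves 1 KO DEHP library, the median of the 762 genes was 0.40 in knockout and 0.34 in wild type, so the order of the genotypes turned round.

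The Cyp4a enzymes, which hydroxylate the end carbon of fatty acids and are classical PPARalpha targets, included Cyp4a14 and Cyp4a10, the highest responses of both genotypes off the pancreas lists. Cyp4a14 (Entrez 13119, chromosome 4, 115486200 to 115496158) had 766, 680.4, 1240.3 and 1591 FPKM in KO DEHP libraries, against 0.94, 0.49, 0.25 and 1.42 FPKM in KO CMC libraries. In wild type Cyp4a14 had 1174, 1342, 1373 and 2664 FPKM with DEHP, against 0.64, 9.92, 1.15 and 17.4 FPKM with CMC. Every DEHP library was far above every CMC library, WT DEHP library 4 was the highest of all, and WT CMC libraries 2 and 4 stood above the other CMC libraries. The response was 9.20 ± 0.60 in knockout (SE, adjusted p = 3.21e-07) and 8.23 ± 0.60 in wild type (adjusted p = 8.88e-07), with an interaction of 0.96 (95% interval -0.83 to 2.76). Cyp4a10 responded by 7.61 ± 0.74 in knockout and 6.06 ± 0.74 in wild type, with an interaction interval of -0.65 to 3.77. CMC libraries ran from 0.25 to 17.4 FPKM for Cyp4a14 and from 0.47 to 45.6 FPKM for Cyp4a10, and with such scatter the intervals admit a difference of several fold between the genotypes. Cyp4a10, Cyp4a31 and Cyp4a32 are close copies, and how the authors' counting shared reads among them is not stated.

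Ehhadh (Entrez 74147, chromosome 16, 21761285 to 21787834), the bifunctional enzyme of peroxisomal beta-oxidation, had 413, 415, 841 and 919 FPKM in KO DEHP libraries, against 48.9, 47.9, 32.6 and 63.3 FPKM in KO CMC libraries. In wild type Ehhadh had 751, 830.4, 937 and 2175 FPKM with DEHP, against 38.0, 51.3, 43.4 and 61.7 FPKM with CMC. KO DEHP libraries 1 and 2 were the lowest DEHP libraries and WT DEHP library 4 the highest, and all 3 hold pancreas transcripts, as does KO DEHP library 3. The response was 3.66 ± 0.33 in knockout and 4.44 ± 0.33 in wild type, and the interaction of -0.79 had an interval of -1.78 to 0.21. Without the 5 libraries with pancreas transcripts the interaction was 0.04. Acot1, a cytosolic acyl-CoA thioesterase that shares sequence with its paralogs, behaved alike, with 33.8, 22.0, 75.3 and 80.2 FPKM in KO DEHP libraries and 222.5 FPKM in WT DEHP library 4 beside 47.9 to 62.5 FPKM in the other WT DEHP libraries.

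Retsat, the retinol saturase, had 405 to 558 FPKM in KO DEHP libraries and 46.7 to 125 FPKM in KO CMC libraries, and 444 to 695 FPKM in WT DEHP and 41.7 to 104 FPKM in WT CMC libraries. Its responses, 2.68 ± 0.29 in knockout and 2.95 ± 0.29 in wild type, differed by -0.27 (95% interval -1.14 to 0.59). Vnn1, a pantetheinase, responded by 3.11 ± 0.33 in knockout and 2.35 ± 0.33 in wild type (interaction 0.76, -0.24 to 1.76). Vnn1 had 1.92, 1.21, 1.83 and 4.26 FPKM in KO CMC libraries and 4, 4.26, 3.63 and 11.03 FPKM in WT CMC libraries, the last from a library with pancreas transcripts, and both the CMC and the DEHP libraries of the genotypes overlapped. Neither interval excludes equal responses.

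**Figure D3:**
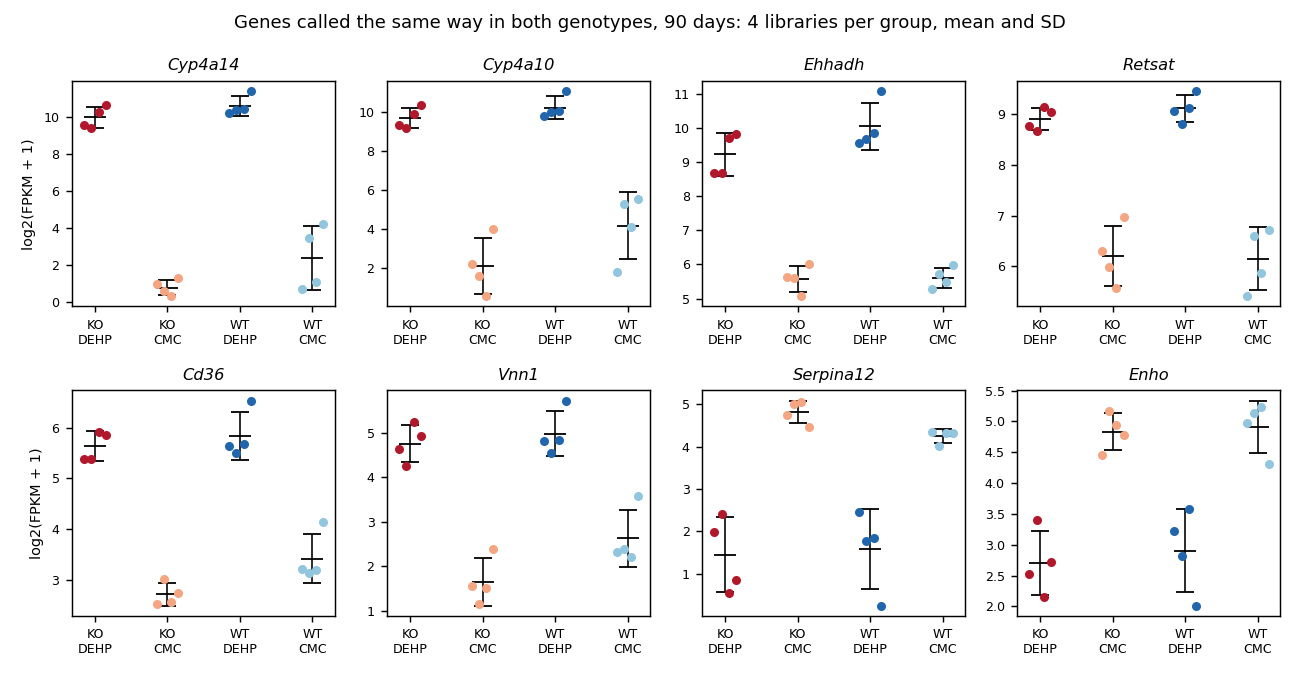
Level in log2(FPKM + 1) of 8 genes called the same way in both genotypes, with 1 point per library and the mean and SD of 4 libraries per group. The axes of the panels differ and do not all start at 0. In every panel the DEHP and CMC libraries of a genotype are separate, Serpina12 and Enho being lower with DEHP, and WT DEHP library 4 (rightmost point of its group) is at an end of its group in all 8.

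The fatty acid oxidation lists held higher and no lower calls in both genotypes. Of 19 mitochondrial genes tested, 11 rose in the knockout and 17 in wild type, the 11 being among the 17, and none fell. Their median response was 0.52 in knockout and 0.60 in wild type, and all 19 had the same sign in both. Eci1, an enoyl-CoA isomerase, had 153 to 204 FPKM in KO DEHP and 62.2 to 94.7 FPKM in KO CMC libraries, and 169 to 223 FPKM in WT DEHP and 66.7 to 86.3 FPKM in WT CMC libraries, with responses of 1.24 in knockout and 1.35 in wild type. Of 19 peroxisomal genes, 8 rose in the knockout and 13 in wild type, 7 in both, with medians of 0.44 in knockout and 0.69 in wild type, and 17 of the 19 had the same sign in both. With a pancreas score per library as a covariate, which is confounded with KO DEHP, the knockout calls were 2 of the 19 mitochondrial and 3 of the 19 peroxisomal genes. Without the 2 wild-type libraries with pancreas transcripts, 15 mitochondrial genes rose in the knockout and 14 in wild type. In the same setting 9 peroxisomal genes rose in the knockout and 11 in wild type, so the gap in calls depends on these libraries.

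The interaction was positive for 2 of the 19 mitochondrial and 2 of the 19 peroxisomal genes, against 6116 of 10744 genes tested. The DEHP-minus-CMC difference was thus lower in the knockout for nearly all of these genes, but none was called, and 1 peroxisomal gene had an unadjusted interaction p under 0.05. The list medians of the interaction were -0.11 for the mitochondrial and -0.17 for the peroxisomal genes, beside intervals that reached a median of 0.36 to either side. Without the 5 libraries with pancreas transcripts the interaction was positive for 5 mitochondrial and 8 peroxisomal genes, with list medians of -0.051 and -0.059. The 34 other PPARalpha targets held 14 higher and 1 lower in the knockout and 20 higher and 1 lower in wild type, with medians of 0.51 in knockout and 0.78 in wild type. Without the 2 wild-type libraries with pancreas transcripts, 18 of the 34 rose in the knockout and 19 in wild type. Pex11a, which divides peroxisomes, was called in wild type alone, with 29.6 to 34.4 FPKM in KO DEHP and 20.8 to 32.3 FPKM in KO CMC libraries, and with 34.9 to 48.4 FPKM in WT DEHP and 19.5 to 28.2 FPKM in WT CMC libraries. Its interaction of -0.47 (-0.87 to -0.07) had an unadjusted p of 0.0248 and an adjusted p of 0.811.

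Promoters of the shared genes were read for the element that PPARalpha and RXR bind, a direct repeat of 2 hexamers. The hexamer AGGNCA, 1 base of any kind and the hexamer AGGNCA again, N being any base, were searched on both strands of the 250 bases before to 50 after each RefSeq gene start in GRCm38.p6. On the opposite strand the hexamer reads TGNCCT. It was found for 122 of 27025 genes with a promoter entry (0.451%) and for 32 of 8639 tested genes with one (0.37%). Of the genes higher in both genotypes, 147 matched an entry and 1 held it, and of those lower in both, 31 matched and 2 held it. The 3 are shown because they are the shared genes that carry the letters, with the matches in capitals and each strand read 5′ to 3′ along the gene. Fabp1, the liver fatty acid binding protein, lies at chr6:71199629-71199928 on the plus strand, with its match starting 67 bases before the start. F7, coagulation factor VII, lies at chr8:13025784-13026083 on the plus strand, with its match 34 bases before the start. Cyp2d40, a cytochrome P450 gene, lies at chr15:82764073-82764372 on the minus strand and has 2 matches.
Fabp1: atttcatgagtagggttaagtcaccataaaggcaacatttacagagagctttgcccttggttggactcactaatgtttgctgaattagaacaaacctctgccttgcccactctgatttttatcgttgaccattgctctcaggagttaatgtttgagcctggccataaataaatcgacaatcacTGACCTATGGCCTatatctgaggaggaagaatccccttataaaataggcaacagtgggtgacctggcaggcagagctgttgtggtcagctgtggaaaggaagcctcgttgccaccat
F7: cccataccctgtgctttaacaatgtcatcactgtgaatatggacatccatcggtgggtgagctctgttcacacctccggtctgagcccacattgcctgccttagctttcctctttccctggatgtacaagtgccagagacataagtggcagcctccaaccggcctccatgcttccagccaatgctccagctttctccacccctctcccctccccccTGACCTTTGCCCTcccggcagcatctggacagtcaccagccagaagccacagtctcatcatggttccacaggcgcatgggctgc
Cyp2d40: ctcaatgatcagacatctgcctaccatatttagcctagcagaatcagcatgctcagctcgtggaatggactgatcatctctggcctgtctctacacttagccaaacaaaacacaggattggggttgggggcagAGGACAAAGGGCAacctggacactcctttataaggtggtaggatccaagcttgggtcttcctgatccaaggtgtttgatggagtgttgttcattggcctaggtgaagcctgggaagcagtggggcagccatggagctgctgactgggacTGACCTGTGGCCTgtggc
A match describes letters and is neither a binding site nor a cause, and the window leaves out most of each gene's regulatory sequence.

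These 3 genes moved in the same direction in both genotypes. Fabp1 had 8036 to 10374 FPKM in KO DEHP and 3080 to 6346 FPKM in KO CMC libraries, and 8896 to 10866 FPKM in WT DEHP and 3088 to 5158 FPKM in WT CMC libraries. It responded by 0.96 ± 0.20 in knockout and 1.45 ± 0.20 in wild type (interaction -0.49, -1.08 to 0.10). F7 fell by 0.39 in knockout and 0.38 in wild type, with 33.2 to 39.2 FPKM in KO DEHP and 43.9 to 57.3 FPKM in KO CMC libraries, and 29.6 to 37.1 FPKM in WT DEHP and 39.1 to 49.9 FPKM in WT CMC libraries. Cyp2d40 fell by 1.23 in knockout and 1.17 in wild type. In none of the 3 did DEHP and CMC libraries of a genotype overlap.

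Among genes that fell in both, Serpina12 (Entrez 68054, chromosome 12, 104028769 to 104044443), the gene of the serpin vaspin, had the lowest mean response. It had 2.98, 4.35, 0.47 and 0.80 FPKM in KO DEHP libraries, against 26.01, 31.0, 32.3 and 21.3 FPKM in KO CMC libraries. In wild type Serpina12 had 4.51, 2.43, 2.60 and 0.19 FPKM with DEHP, against 19.5, 15.1, 19.2 and 19.0 FPKM with CMC. The groups were far apart in both genotypes, and the responses were -3.37 ± 0.42 in knockout (SE, adjusted p = 0.000247) and -2.67 ± 0.42 in wild type (adjusted p = 0.00158), with an interaction interval of -1.94 to 0.55. Without the 2 wild-type libraries with pancreas transcripts the interaction of Serpina12 was -1.16 (limma, unadjusted p = 0.0357, adjusted p = 0.69). It was -1.77 without all 5, which leaves 1 KO DEHP library. Enho, which encodes the secreted peptide adropin, fell by 2.13 in knockout and 2.01 in wild type (interaction -0.12, -1.05 to 0.81). Apoa4, an apolipoprotein of lipid-rich particles, fell by 1.89 in knockout and 2.30 in wild type, with KO DEHP library 2 at 63.3 FPKM beside 13.7 to 17.7 FPKM in the other KO DEHP libraries. Slc22a7, an organic anion transporter, and Cyp39a1, an oxysterol hydroxylase of bile acid synthesis, fell by 1.58 and 1.30 in knockout and by 1.99 and 1.46 in wild type.

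The 16 tested genes of lipid uptake and storage, known as PPARgamma targets in fat cells, held the same 6 higher genes in both genotypes and none lower, and their medians were 0.96 in knockout and 0.47 in wild type, with a median interaction of 0.12. Without the 5 libraries with pancreas transcripts the medians were 0.58 in knockout and 0.55 in wild type, and with the pancreas score 0.34 in knockout and 0.45 in wild type, with negative median interactions of -0.13 and -0.12. Cd36, a fatty acid transporter, had 40.5, 40.7, 59.4 and 57.3 FPKM in KO DEHP libraries, against 4.79, 7.07, 4.94 and 5.65 FPKM in KO CMC libraries. In wild type Cd36 had 48.8, 44.5, 50.1 and 91.6 FPKM with DEHP, against 8.27, 7.82, 8.13 and 16.7 FPKM with CMC. All DEHP libraries exceeded all CMC libraries, and library 4 was the highest of both wild-type groups. Responses were 2.92 ± 0.24 in knockout and 2.42 ± 0.24 in wild type (interaction 0.50, -0.22 to 1.23). Lpl, lipoprotein lipase, rose by 2.01 in knockout and 1.76 in wild type, and Mogat1, a monoacylglycerol acyltransferase, by 2.56 in knockout and 2.92 in wild type.

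Of 25 sterol synthesis genes, 4 rose in the knockout and 10 in wild type, 3 of them in both, with medians of 0.55 in knockout and 0.74 in wild type. Tm7sf2, a sterol reductase, had 134 to 163 FPKM in KO DEHP and 88.5 to 114 FPKM in KO CMC libraries, and 113 to 165 FPKM in WT DEHP and 83.6 to 101 FPKM in WT CMC libraries, with responses of 0.55 in knockout and 0.59 in wild type. Hmgcs1, which makes the precursor of mevalonate, had 77.7, 115, 111 and 175 FPKM in KO DEHP libraries, against 34.4, 62.2, 57.2 and 49.2 FPKM in KO CMC libraries. In wild type Hmgcs1 had 154, 149, 195 and 412 FPKM with DEHP, against 39.4, 59.5, 137 and 57.5 FPKM with CMC. WT DEHP library 4 was again the highest, and the interaction was -0.45 (-1.55 to 0.65). The direction of the list's interaction changed when libraries that hold pancreas transcripts were left out. The interaction was positive for 3 of 25 genes with all 16 libraries, for 16 of 25 without the 2 wild-type libraries and for 24 of 25 without all 5 libraries, which leaves 1 KO DEHP library, with list medians of -0.20, 0.05 and 0.51. With the pancreas score it was positive for 7 of 25, with a median of -0.096, and no gene of the list was called in the knockout. Wild-type calls of the list were 4 without the 2 wild-type libraries and 3 without all 5. None of the 25 was called for the interaction.

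Acute phase genes, which hepatocytes raise during inflammation, had lower medians with DEHP in both genotypes. None of 26 rose. In the knockout 1 fell, Cebpd, which encodes a transcription factor and no secreted protein. In wild type 7 fell (Saa3, Hpx, Fga, Fgb, Fgg, Serpina3m and Cp). The medians were -0.43 in knockout and -0.80 in wild type. The interaction was positive for 22 of 26, against 6116 of 10744 genes, and 4 of the 26 had an unadjusted p under 0.05 but none was called. Saa3, a serum amyloid A gene, had 7.54, 8.32, 4.93 and 7.43 FPKM in KO DEHP libraries, against 86.5, 28.9, 21.0 and 11.7 FPKM in KO CMC libraries. In wild type Saa3 had 5.13, 4.17, 5.03 and 3.17 FPKM with DEHP, against 202, 47.7, 36.4 and 5.02 FPKM with CMC. The CMC libraries scattered widely, WT CMC library 4 lay within the range of the WT DEHP libraries, and the responses were -1.88 ± 0.75 in knockout (adjusted p = 0.176) and -2.86 ± 0.75 in wild type (adjusted p = 0.0337), a call lost without any 1 of WT DEHP libraries 2 to 4 or WT CMC libraries 1 to 3. Serpina3m, a serine protease inhibitor, had 111 to 166 FPKM in KO DEHP and 98.1 to 212 FPKM in KO CMC libraries, which overlapped, and 80.2 to 136 FPKM in WT DEHP and 166 to 236 FPKM in WT CMC libraries, which did not. Its interaction was 0.99 (0.31 to 1.67, unadjusted p = 0.0074, adjusted p = 0.72). Without the 2 wild-type libraries with pancreas transcripts, 16 of the 26 genes fell in wild type, with a median of -1.32, and 2 fell in the knockout. With the pancreas score the medians were -0.11 in knockout and -0.79 in wild type, and 0 genes fell in the knockout and 8 in wild type.

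Of 33 complement and coagulation genes, 3 fell in the knockout and 11 in wild type, all 3 being shared. Upper quartile scaling gave 8 in knockout and 16 in wild type, quantile normalization 10 in knockout and 19 in wild type, and the pancreas score 0 in knockout and 12 in wild type. C9, a subunit of the membrane attack complex, fell by 0.98 in knockout and 1.01 in wild type. C1s1, a protease of the classical pathway, fell by 0.50 in knockout and 0.61 in wild type. The only member called higher was Cfd in the knockout, an adipocyte product treated with the fat cell markers below.

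Major urinary proteins, pheromone carriers made by male mouse liver under growth hormone, had lower medians with DEHP. Of 18 genes, 4 fell in the knockout (Mup3, Mup12, Mup20 and Mup21) and none was called in wild type, with medians of -0.98 in knockout and -0.35 in wild type, and 1 of 18 interactions was positive. With the pancreas score the medians were -0.50 in knockout and -0.34 in wild type, 8 of 18 interactions were positive and 1 gene fell in the knockout, against 9 without the 2 wild-type libraries with pancreas transcripts and 8 without all 5. Mup21 (Entrez 381531) had 225, 204, 134 and 161 FPKM in KO DEHP libraries, against 358, 513, 487 and 407 FPKM in KO CMC libraries. In wild type Mup21 had 212, 223, 221 and 200.01 FPKM with DEHP, against 415, 275, 286 and 250.3 FPKM with CMC. The groups of each genotype were separate, the DEHP levels of both genotypes overlapped, and KO CMC libraries 2 and 3 were above every WT CMC library. The response was -1.30 ± 0.17 in knockout (adjusted p = 0.000444) and -0.49 ± 0.17 in wild type (adjusted p = 0.104), and the interaction of -0.80 (-1.32 to -0.29) had an unadjusted p of 0.00421 and an adjusted p of 0.712. Mup3, with -0.55 in wild type (adjusted p = 0.0525), was called there with the replicate number as a block (adjusted p = 0.0392). These genes are near-identical copies, and reads may have been shared among them.

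Of 29 male-biased genes, 7 fell in the knockout and 3 in wild type, while Cyp4a12a and Cyp4a12b rose in both. The number that fell in the knockout was 14 without the 2 wild-type libraries with pancreas transcripts, 17 without all 5 and 1 with the pancreas score, and positive interactions were 6 of 29 with all 16 libraries and 16 of 29 with the score. Cyp4a12a responded by 1.5 ± 0.09 in knockout and 1.73 ± 0.09 in wild type (interaction -0.23, -0.50 to 0.04). Of 12 female-biased genes tested, 4 rose in the knockout and 3 in wild type, with medians of 0.98 in knockout and 0.52 in wild type, and the called ones include Cyp4a10 and Cyp4a14. Cyp2c38, a cytochrome P450 gene called in the knockout alone, had 8.91 to 17.7 FPKM in KO DEHP and 1.82 to 4.57 FPKM in KO CMC libraries, and 7.47 to 15.4 FPKM in WT DEHP and 3.45 to 11.3 FPKM in WT CMC libraries. Its interaction was 1.24 (0.36 to 2.12, unadjusted p = 0.00879, adjusted p = 0.727).

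Xenobiotic and stress lists differed in their calls. Of all genes tested, 3.32% rose in the knockout and 4.58% in wild type. Of 36 genes regulated by the receptors CAR and PXR, 6 rose in the knockout, and 5 rose and 1 fell in wild type, with medians of 0.24 in each genotype. Without the 5 libraries with pancreas transcripts 11 rose in the knockout, and with the pancreas score none did. Aldh1a1, a retinal dehydrogenase, rose by 0.82 in knockout and 0.87 in wild type (interaction -0.05, -0.55 to 0.45). Of 22 NRF2 genes, 2 rose and 1 fell in the knockout and 8 rose in wild type. Without the 2 wild-type libraries with pancreas transcripts, 3 rose and 1 fell in the knockout and 5 rose in wild type. Nqo1, a quinone reductase, rose by 0.98 in knockout and 1.14 in wild type. Subunits of oxidative phosphorylation held 1 higher gene of 30 in the knockout, Uqcrc2, and 11 higher in wild type, with medians of 0.19 in knockout and 0.27 in wild type. The wild-type calls of this list were 4 without the 2 wild-type libraries with pancreas transcripts, 3 without all 5 and 4 under quantile normalization, and Uqcrc2 was not called in the knockout in any of these. Interferon-stimulated genes (28) and genes of the unfolded protein response (21) had no call in either genotype. The unfolded protein response list had a positive interaction for 20 of 21 genes with all 16 libraries and for 11 of 21 without the 5 libraries with pancreas transcripts.

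**Figure D4:**
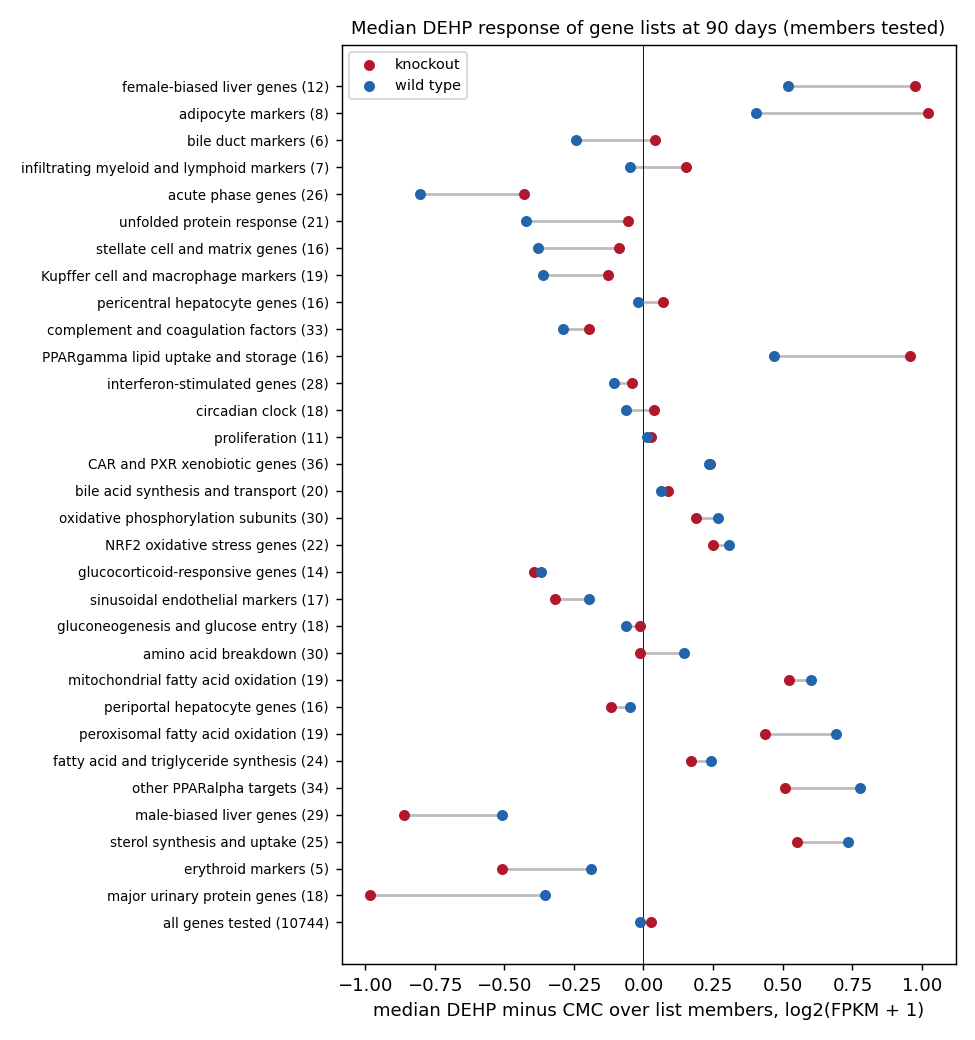
Median response, DEHP minus CMC in log2(FPKM + 1), of each gene list with at least 5 members tested, in knockout (red) and wild type (blue), with the number of members in brackets and all 10744 genes at the foot. Lists are ordered by the median interaction of their members, and the pancreas lists are left out. The oxidation and PPARalpha lists lie to the right in both genotypes, the male-biased and major urinary protein lists to the left.

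Markers of other liver cells were counted by list, beside 0.959% of all genes tested that fell in the knockout and 1.74% in wild type. Of 19 Kupffer cell and macrophage markers, none was called in the knockout and Lyz2 alone in wild type. In the knockout Lyz2 had only 0.83 to 2.19 FPKM, which leaves little room for a fall to be called. The summed level of the 19 was 358 to 480.3 FPKM in KO DEHP and 326 to 558 FPKM in KO CMC libraries. In wild type it was 349 to 408 FPKM in DEHP and 470.4 to 578 FPKM in CMC libraries. The wild-type groups did not overlap, and the knockout groups did. The median response of the 19 was -0.13 in knockout and -0.36 in wild type, and without the 5 libraries with pancreas transcripts 0.16 in knockout and -0.38 in wild type. Of 16 stellate cell and matrix genes, Rgs5, Hgf and Ecm1 fell in the knockout and Rgs5 and Hgf in wild type. Of 17 sinusoidal endothelial markers none was called with all 16 libraries and 11 were called lower in the knockout without the 5 libraries, and their sum was 98.3 FPKM in KO DEHP library 4, against 151 to 233 FPKM in the other 15 libraries. That library is the only KO DEHP library outside the 5, and it held endocrine pancreas genes at 14.6 FPKM in sum. Any value resting on it alone also carries these genes and a low endothelial signal, and their part in the results was not tested.

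Some fat cell markers were called as well. Of 8 tested, Adipoq, Cfd and Lipe rose in the knockout and Scd1, which hepatocytes also express, in wild type. None of the 8 was called in the knockout without the 5 libraries with pancreas transcripts or with the pancreas score. Adipoq, the adiponectin gene, had 4.17, 1.89, 3.48 and 0.63 FPKM in KO DEHP libraries and was listed at 0 in all KO CMC libraries. In wild type Adipoq had 0, 0, 1.57 and 0.96 FPKM with DEHP, against 0.08, 0.47, 0 and 2.42 FPKM with CMC. Cfd, complement factor D, had 18.3, 12.5, 23.9 and 6.84 FPKM in KO DEHP libraries, against 0, 0, 0.53 and 0 FPKM in KO CMC libraries. The wild-type Cfd values were 0.79, 2.29, 10.9 and 8.23 FPKM with DEHP, against 1.24, 2.73, 0.11 and 19.9 FPKM with CMC. In the groups that held any, libraries with pancreas transcripts had the highest Adipoq and Cfd, except that WT DEHP library 3 was above WT DEHP library 4 for both. The summed level of the list, carried by Scd1, was 2569 to 3507 FPKM in KO DEHP and 2038 to 2416 FPKM in KO CMC libraries, and 2530.1 to 3321 FPKM in WT DEHP and 1215 to 2683 FPKM in WT CMC libraries.

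Of genes off the pancreas lists, the smallest interaction p belonged to Coq10a (Entrez 210582, chromosome 10, 128363096 to 128370056), which encodes a mitochondrial coenzyme Q-binding protein. Coq10a had 7.10, 6.13, 6.73 and 7.41 FPKM in KO DEHP libraries, against 4.23, 5.30, 5.56 and 5.24 FPKM in KO CMC libraries. In wild type Coq10a had 4.73, 4.33, 5.46 and 4.16 FPKM with DEHP, against 5.61, 6.66, 7.11 and 6.76 FPKM with CMC. DEHP libraries were all higher in knockout and all lower in wild type, with no overlap in either. It was the only gene called in opposite directions with all 16 libraries, with 0.37 ± 0.10 in knockout (adjusted p = 0.0454) and -0.41 ± 0.10 in wild type (adjusted p = 0.0217). The opposite calls did not hold in many settings. Coq10a had an adjusted p of 0.0854 in knockout under upper quartile scaling and of 0.0643 under quantile normalization, and of 0.116 in wild type without the 2 wild-type libraries with pancreas transcripts. No gene had opposite calls in these settings, with no filter, with the pancreas score, without the 5 libraries, or in 12 of 16 single omissions, all but those of KO DEHP library 2, WT DEHP libraries 2 and 3 and WT CMC library 1. The interaction was 0.78 (0.49 to 1.08, unadjusted p = 4.06e-05), and its adjusted p over all genes was 0.432, so it was not called. It was 0.83 without the 5 libraries with pancreas transcripts (unadjusted p = 0.00304).

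Clec3b (Entrez 21922), which encodes the plasminogen-binding protein tetranectin, came next. Clec3b had 1.22, 4.01, 3.73 and 1.39 FPKM in KO DEHP libraries, against 0.11, 0, 0.10 and 0 FPKM in KO CMC libraries. In wild type Clec3b had 0, 0.17, 1.22 and 0.77 FPKM with DEHP, against 0.61, 1.68, 0.71 and 2.31 FPKM with CMC. The knockout groups were apart and the wild-type groups overlapped. The interaction was 2.27 (1.36 to 3.19, unadjusted p = 8.04e-05, adjusted p = 0.432). The fat cell genes Adipoq and Cfd were also at or near 0 in KO CMC libraries and present in KO DEHP libraries, and their part in this value was not tested.

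Sgf29, a histone-reading subunit of the SAGA complex, had 9.30 to 11.7 FPKM in KO DEHP and 7.08 to 10.02 FPKM in KO CMC libraries, and 6.80 to 8.91 FPKM in WT DEHP and 10.4 to 12.7 FPKM in WT CMC libraries. The knockout groups overlapped and the wild-type groups did not, with responses of 0.25 in knockout (adjusted p = 0.228) and -0.50 in wild type (adjusted p = 0.0132) and an interaction of 0.75 (0.42 to 1.08). Sh3yl1, a lipid-binding SH3 protein, had 4.20 to 5.21 FPKM in KO DEHP and 2.65 to 3.15 FPKM in KO CMC libraries, and 2.52 to 3.13 FPKM in WT DEHP and 2.86 to 4.34 FPKM in WT CMC libraries. Here the knockout groups were apart, with a response of 0.52 (adjusted p = 0.00907) against -0.18 (adjusted p = 0.319) in wild type and an interaction of 0.70 (0.40 to 1.01). Snrnp48, of the minor spliceosome, and Gtf2a2, a general transcription factor subunit, had interactions of 0.60 and 0.58. Pdlim7, an actin-associated LIM protein, and Recql, a DNA helicase, had negative interactions of -0.80 and -0.57, being lower with DEHP in the knockout and higher in wild type without a call in either. None of these was called for the interaction.

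**Figure D5:**
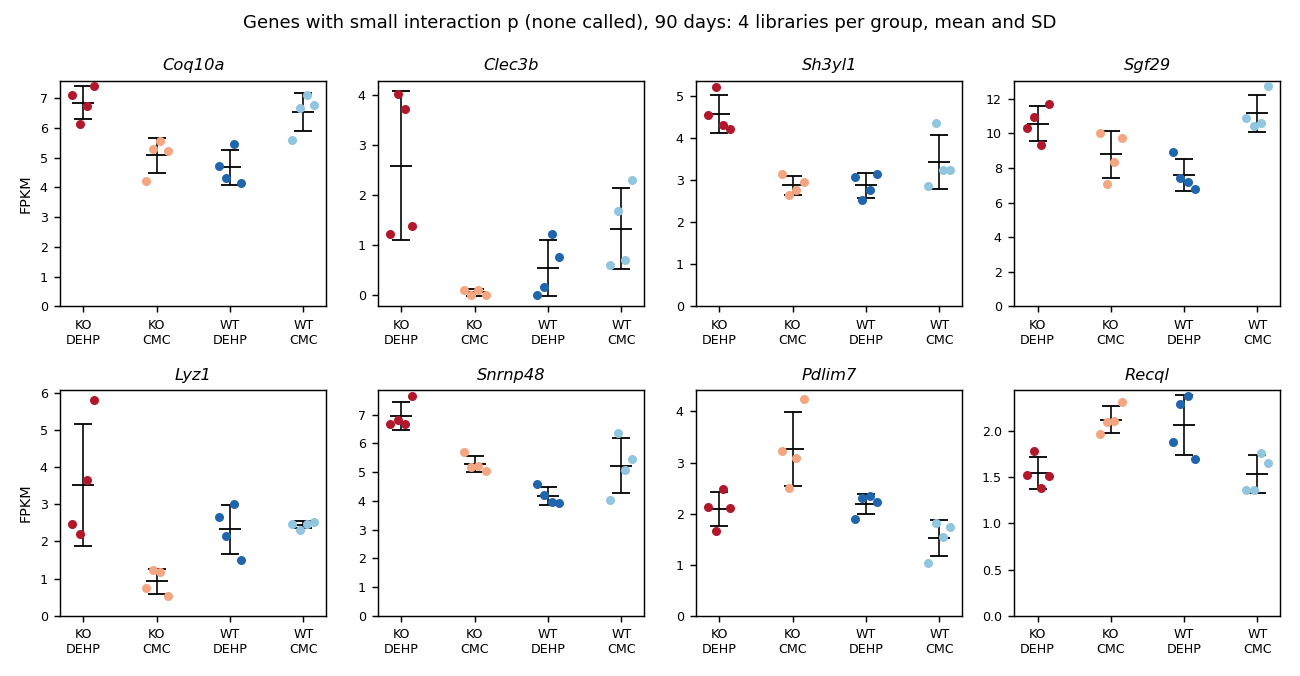
FPKM of 8 of the 12 genes off the pancreas lists with the smallest interaction p, with 1 point per library and the mean and SD of 4 libraries per group. None was called. Coq10a is higher with DEHP in knockout and lower with DEHP in wild type, and Pdlim7 and Recql lean the other way.

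Lyz1 (Entrez 17110), a lysozyme gene beside Lyz2 and its close paralog, had 2.46, 2.20, 3.66 and 5.80 FPKM in KO DEHP libraries, against 0.74, 1.24, 1.17 and 0.54 FPKM in KO CMC libraries. In wild type Lyz1 had 2.65, 2.15, 3.01 and 1.5 FPKM with DEHP, against 2.48, 2.32, 2.48 and 2.53 FPKM with CMC. KO CMC libraries were lower than all others, and the wild-type groups overlapped. The response was 1.19 ± 0.20 in knockout (adjusted p = 0.00428) and -0.08 ± 0.20 in wild type, and the interaction was 1.26 (0.65 to 1.88, unadjusted p = 0.000496, adjusted p = 0.545). Lyz2 was far lower in knockout than in wild-type libraries, and reads of the 2 copies may have been shared.

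Leaving out the 5 libraries with pancreas transcripts, which leaves KO DEHP library 4 alone in its group, called 29 interactions, 26 positive and 3 negative. Pancreas genes such as Ins2 and Ctrc were among them. Ins2 had 10.3 FPKM and Ctrc 2.58 FPKM in that library, against 2.60 and 3.57 FPKM in KO DEHP library 2, which was left out. KO DEHP library 4 is thus not free of pancreas transcripts. The other calls included the leukocyte genes Ptprc, Itgb2, Fcgr4 and Evl, higher in KO DEHP library 4. Kdr, an endothelial receptor gene, Slco1a1, a transporter gene, and Hsd3b5, a steroid dehydrogenase gene, were lower in it. Acot3 and Lyz1 were also called. Kdr had 9.08, 8.44, 9.36 and 2.60 FPKM in KO DEHP libraries, against 8.72 to 9.79 FPKM in KO CMC libraries, 6.21 to 8.76 FPKM in WT DEHP and 8.20 to 10.2 FPKM in WT CMC libraries. Ptprc, the common leukocyte antigen gene, had 1.73, 2.65, 2.30 and 4.78 FPKM in KO DEHP libraries, against 1.26 to 2.12 FPKM in KO CMC libraries. Slco1a1 had 28.7 FPKM in KO DEHP library 4 but also 14.6 FPKM in WT DEHP library 4, which is among the 5 left out. These calls rest on 1 library and are no replicated difference between the genotypes.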

How the data were processed

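RNA of whole liver was extracted with Trizol and sequenced after library preparation with an Illumina TruSeq kit, per the labels' protocols. The authors deposited 1 table of FPKM per gene and library, of 17792 genes, and per the submitters' processing notes Cuffdiff and mm10 (GRCm38) were used, with no version stated. The aligner and the strand setting of the counting are not given in the sources used here, and 0 columns of per-sample values were left unused. FPKM hides the depth of a gene, so the depth was approximated from the steps between low values of 1770 short single-transcript genes, which gives no counting interval.

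Of these genes, 10744 had 1 FPKM or more in 3 or more of the 16 libraries and were tested as log2(FPKM + 1), a scale that understates changes of low genes. In R 4.3.3, limma 3.58.1 fitted the 4 group means with a variance trend (12 residual and 3.79 prior degrees of freedom). DEHP minus CMC in each genotype and their difference were tested two-sided. A call is an adjusted p under 0.05, by the Benjamini-Hochberg method over the 10744 genes. The fit was tested on simulated data. By Entrez number 17743 genes (99.7%) had a RefSeq entry in GRCm38.p6. Gene positions and promoters are RefSeq's. Other steps used pandas 2.3.3, numpy 2.4.6 and, for plots, matplotlib 3.10.9 under Python 3.11.15.

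The members, 33 gene lists and named genes were chosen with earlier results of these data known. The rule for names took Pparg and Lyz2, the 12 smallest interaction p off the pancreas lists, the 8 highest and 8 lowest mean responses among genes called alike in both genotypes with separate groups, 2 genes per list with at least 2 calls, and 3 pancreas genes. Other list members are named beside their list. Some genes the rule takes are given only within counts. Alternatives were a pseudocount of 0.1, no filter or one of 5 FPKM, upper quartile and quantile scaling, weighting of libraries, a block for the replicate number, all 28 libraries in 1 fit, a pancreas score as covariate, 5 libraries with pancreas transcripts left out, and each library left out. Leaving out the 2 wild-type libraries with pancreas transcripts, or the pancreas genes, was added after seeing the data. As a check of pairing, residuals of libraries with the same number were correlated. They gave 0.267, 0.259, 0.224 and 0.67 in wild type and -0.0255, 0.0368, -0.108 and -0.0152 in knockout. All 4 wild-type values, and no knockout value, exceed 0.1, the bound for pairing. The tests given use no block, and the block was fitted to both genotypes as an alternative. The check is uncertain, since library 4 of both wild-type groups holds pancreas transcripts and all 4 wild-type values were negative (-0.14, -0.131, -0.0969 and -0.597) once the pancreas score was removed.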

Additional observations from a re-analysis of the deposited data

Results flagged for a closer look

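Single libraries that stood far from the other 3 of their group were sought by Dixon's ratio. The genes share the same libraries and are not independent, so no rate by chance is set beside the count. Such libraries were found 32 times in 278 groups of the 72 named genes. Of these, 10 were in WT DEHP library 4 and 7 in WT CMC library 4, the 2 wild-type libraries with pancreas transcripts. WT DEHP library 4 had 2664 FPKM of Cyp4a14, 2166.3 FPKM of Cyp4a10 beside 892 to 1086 FPKM in the others, 80.2 FPKM of Cyp4a31 beside 41.0 to 42.5 FPKM, and 2175 FPKM of Ehhadh. It also had 222.5 FPKM of Acot1, 91.6 FPKM of Cd36 and 1302 FPKM of Aldh1a1 beside 771 to 841 FPKM. All 7 of these genes rise with DEHP and are highest in that library. WT CMC library 4 had 11.03 FPKM of Vnn1, 16.7 FPKM of Cd36 and 73.8 FPKM of Elovl5 beside 43.0 to 44.0 FPKM, all above the others, and 259 FPKM of C9 beside 361 to 373 FPKM, below them. These 4 values lie on the side of the DEHP libraries.

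The pancreas genes account for the other 6 values of these 2 libraries. Amy2a3 had 9773 FPKM in WT DEHP library 4 and 7551 FPKM in WT CMC library 4, Ctrb1 had 5518 FPKM in the DEHP and 2847 FPKM in the CMC library, and Cela2a 3923 FPKM in the DEHP and 2749 FPKM in the CMC library.

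In the knockout, KO DEHP library 2 stood apart for Apoa4 (63.3 FPKM), Per1 (2.37 FPKM beside 3.40 to 3.58 FPKM) and Uqcrc2 (103 FPKM beside 113 FPKM). KO DEHP library 3 had 4.49 FPKM of Mex3c and 44.0 FPKM of Slc37a4 beside 60.2 to 63.4 FPKM. KO DEHP library 4 had 7.65 FPKM of Snrnp48 and 2.83 FPKM of Cebpd beside 3.27 to 3.34 FPKM. KO CMC library 2 had 3.36 FPKM of Per1, a clock gene, beside 6.21 to 6.60 FPKM, and KO CMC library 4 had 6106 FPKM of Serpina1e beside 9935 to 10146 FPKM and 44.1 FPKM of Decr1 beside 31.8 to 33.5 FPKM. The remaining 5 were in WT CMC libraries. Cyp4a12b had 17.0 FPKM in library 1 beside 27.0 to 27.9 FPKM, and library 2 had 15.1 FPKM of Serpina12 and 133 FPKM of Apoa4 beside 77.1 to 84.7 FPKM. Library 3 had 105 FPKM of Lyz2 and 140 FPKM of C1s1 beside 157 to 160 FPKM.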

How the results depend on the processing

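Single omissions apart, the interaction called 0 genes under each setting tried but for 29 without the 5 libraries with pancreas transcripts. Leaving out 1 library called 0 to 2 interactions: Ppp1r3b (adjusted p = 0.0208) and H2-Eb1 (adjusted p = 0.0329) without KO CMC replicate 2, and Gm9199 (adjusted p = 1.82e-06) without KO CMC replicate 4. Knockout calls, 460, were 705 with library weights, 159 with the replicate block and the pancreas score and 61 with the score alone, which is confounded with KO DEHP. They ran from 173 to 569 over single omissions, with 173, 303, 199 and 251 without KO DEHP replicates 3 and 4 and KO CMC replicates 1 and 3. Wild-type calls, 679, were 296 without the 5 libraries and 442 without the 2 wild-type ones, and ran from 274 to 781, with 370, 274, 387, 319 and 373 without WT DEHP replicates 3 and 4 and WT CMC replicates 1, 2 and 3. Shared calls, 232, were 100, 47 and 110 with the block and score, with the score and without the 5 libraries, and ran from 111 to 259, with 111, 139, 116, 144 and 149 without KO DEHP replicates 3 and 4, KO CMC replicates 1 and 3 and WT DEHP replicate 3. Of the 232 genes, 171 remained shared under quantile normalization, 91 without the 5 libraries and 47 with the score. Shared genes with an interaction interval within -1 and 1, 197, were 82, 31 and 74 in the same 3 settings and ran from 86 to 219, with 87, 108, 86, 119, 111, 131, 123 and 129 without KO DEHP replicates 3 and 4, KO CMC replicates 1 and 3, WT DEHP replicate 3 and WT CMC replicates 1, 2 and 3. The correlation of the responses, 0.680, was 0.531 without the 5 libraries and 0.602 to 0.706 over single omissions. The causes of these changes were not tested, except that dropping libraries leaves fewer samples. With the replicate block the counts were 565 in knockout, 752 in wild type and 311 shared. The block removed the wild-type call of Pklr and added Mup3 in wild type and Me1 and Hmgcs1 in knockout, and changed no other call of a named gene. No call of a named gene changed its direction in any setting. Without KO DEHP replicate 3 or KO CMC replicate 1 the knockout calls of Apoa4 and Elovl5 were lost, without the same 2 or KO DEHP replicate 4 those of Nqo1 and Errfi1, without KO DEHP replicate 3 or 4 or KO CMC replicate 3 that of Slc22a7, and without KO CMC replicate 1 that of Tm7sf2. The wild-type calls of Hmgcs1 and Elovl5 were lost without WT DEHP replicate 4, and without WT CMC replicate 1 for Hmgcs1 or 2 for Elovl5. The knockout calls of Cebpd, Lipe and Uqcrc2 held in 7, 6 and 5 of 16 omissions and the wild-type calls of Pklr and Scd1 in 10 and 12. FPKM without counts gives no interval for single low values, and 4 libraries per group leave interaction differences below a median of 0.36 on the log2 scale within the interval.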

Other observations

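Ppp1r3b and H2-Eb1, named after their values were seen, were the genes with a symbol in common use that gained an interaction call when 1 library was left out. Ppp1r3b, which targets a phosphatase to glycogen, had 15.5, 18.1, 17.1 and 17.6 FPKM in KO DEHP libraries, against 50.8, 21.3, 45.8 and 38.5 FPKM in KO CMC libraries. In wild type Ppp1r3b had 40.6 to 54.7 FPKM with DEHP, against 39.4 to 54.0 FPKM with CMC. KO DEHP libraries were below all others, and the wild-type groups overlapped. The response was -1.08 in knockout (adjusted p = 0.00601) and -0.02 in wild type, and the interaction of -1.07 had an unadjusted p of 0.00156. H2-Eb1, a class II antigen presentation gene, had 17.6 to 19.6 FPKM in KO DEHP libraries, against 8.27, 20.0, 8.71 and 7.60 FPKM in KO CMC libraries, and lay between 12.1 and 17.3 FPKM in all wild-type libraries. The interaction of 0.79 rests on the 3 KO CMC libraries other than library 2.

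Lists of other liver functions differed in their calls. Of all genes tested, 3.32% rose and 0.959% fell in the knockout, and 4.58% rose and 1.74% fell in wild type. Of 24 genes of fatty acid and triglyceride synthesis, 3 rose and 2 fell in the knockout, and 5 rose and 1 fell in wild type. Elovl5, a fatty acid elongase, rose by 1.21 in knockout and 1.13 in wild type, and Pklr, the liver pyruvate kinase, fell by 1.56 in knockout and 0.83 in wild type. Of 18 genes of gluconeogenesis and glucose entry, 4 fell in the knockout and 1 in wild type. With the pancreas score 0 fell in the knockout and 1 in wild type. Under upper quartile scaling and under quantile normalization 4 fell in the knockout and 3 in wild type. Of 14 glucocorticoid-responsive genes, Tsc22d3 and Errfi1 fell in the knockout and none was called in wild type. Without the 2 wild-type libraries with pancreas transcripts, 2 of the 14 fell in the knockout and 4 in wild type. With the pancreas score 0 fell in either genotype. Of 30 genes of amino acid breakdown, 1 rose in the knockout and 4 in wild type, and of 20 of bile acid synthesis and transport 2 rose in the knockout, and 1 rose and 1 fell in wild type. Of 16 pericentral genes, 2 rose and 1 fell in the knockout and 3 fell in wild type, and of 16 periportal genes 1 fell in the knockout and 1 rose in wild type. The 18 clock genes had no call in either genotype, and of 11 proliferation genes 1 fell in the knockout and 2 in wild type. Of 7 markers of infiltrating leukocytes, Cd79a, of B cells, rose in the knockout, of 5 erythroid markers Alas2 fell there, and the 6 bile duct markers had no call. Of 3 endocrine pancreas genes, 1 rose in the knockout and none in wild type.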
